A study of Mus musculus with 9 samples.

Results

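The immediate early transcription factor genes of the FOS, JUN and EGR families were followed in cultured neonatal mouse ovaries exposed to a polycyclic aromatic hydrocarbon. The 10 genes Fos, Fosb, Fosl1, Fosl2, Jun, Junb, Jund, Egr1, Egr2 and Egr3 were looked for by symbol or older synonym among the 25697 probes of an Illumina mouse bead array, which named 17889 genes. The array measured 8 of these 10 genes with 1 probe each (2 of 4 FOS genes, 3 of 3 JUN genes and 3 of 3 EGR genes). Jund was listed under its older symbol Jund1, and no row was found for Fosl1 and Fosl2, which were not analysed here. Each gene therefore rests on a single probe, with no second probe to set beside it.

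Ovaries were taken from Swiss neonates at postnatal day 3 to 4 and kept on floating inserts for 96 hours. All cultures shared one DMEM/F12 medium with fetal calf serum, bovine serum albumin, ascorbic acid, insulin-transferrin-selenium, basic fibroblast growth factor, leukemia inhibitory factor and stem cell factor, renewed every 2 days. The 3 groups had 3 arrays each and received 1 uM benzo[a]pyrene (BaP), 50 nM 7,12-dimethylbenz[a]anthracene (DMBA) or the vehicle, 0.01% acetone. The DMBA concentration had been picked from pilot work to give overt toxicity, and the concentrations of the compounds were not matched. The labels do not say how many ovaries went into an array or whether the replicates were separate cultures, so the p-values measure only the spread between these arrays. Whole ovaries were measured, so fewer cells of a type and less RNA per cell cannot be told apart.

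FOS and JUN proteins pair through leucine zippers to form AP-1, a factor that binds short palindromic DNA elements; JUN proteins can also pair with themselves, whereas FOS proteins need a partner. EGR proteins are zinc-finger factors that bind GC-rich sites and are held in check by the NAB co-repressors. The genes are called immediate early because growth factors, serum and stress switch them on within minutes without new protein synthesis, mainly through the ERK kinases, SRF and its ELK partners at serum response elements. In the ovary, Egr1 and the AP-1 genes are known to respond to gonadotrophins in granulosa cells. BaP and DMBA are both ligands of the aryl hydrocarbon receptor, which binds xenobiotic response elements, and both are metabolised to DNA-reactive products.

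The start-site regions of Egr2 and Fos, the pair of genes that passed the test below, and of Jun, the dimer partner of Fos that did not, are shown as RefSeq gives them for build GRCm38.p6, read on the gene's strand and running from 250 bases before to 50 bases after the annotated start. Capitals mark a CArG box (the SRF binding element) in Egr2 and the reverse complement of the xenobiotic response core GCGTG in Fos.
Egr2 at chr10:67537619-67537918, plus strand: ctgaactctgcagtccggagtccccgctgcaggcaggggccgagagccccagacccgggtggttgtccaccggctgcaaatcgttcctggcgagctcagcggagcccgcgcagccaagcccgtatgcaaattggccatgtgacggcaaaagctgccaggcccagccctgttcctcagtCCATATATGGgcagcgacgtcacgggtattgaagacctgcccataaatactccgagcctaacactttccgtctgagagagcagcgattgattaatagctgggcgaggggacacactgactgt
Fos at chr12:85473640-85473939, plus strand: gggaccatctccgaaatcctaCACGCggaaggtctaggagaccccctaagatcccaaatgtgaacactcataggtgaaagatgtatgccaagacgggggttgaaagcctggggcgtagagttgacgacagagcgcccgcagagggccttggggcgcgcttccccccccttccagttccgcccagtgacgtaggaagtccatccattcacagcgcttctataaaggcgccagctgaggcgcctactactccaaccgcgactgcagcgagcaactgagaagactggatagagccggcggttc
Jun at chr4:95052173-95052472, minus strand: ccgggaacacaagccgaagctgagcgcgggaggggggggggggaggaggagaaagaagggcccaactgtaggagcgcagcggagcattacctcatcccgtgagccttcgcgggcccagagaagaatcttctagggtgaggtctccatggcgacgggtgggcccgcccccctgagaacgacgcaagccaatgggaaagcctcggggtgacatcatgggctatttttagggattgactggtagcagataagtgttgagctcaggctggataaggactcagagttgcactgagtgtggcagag
The Egr2 window was 1 of 5 annotated for that gene, and its CArG box lay at positions -72 to -63 from the start. The Fos match lay at positions -229 to -225. The windows were searched on both strands for TGACGTCA (the cyclic AMP response element), TGACTCA (the AP-1 site), GCGTG, GCGNGGGCG (an EGR site) and the CArG box, and none of these occurred in the Jun window. Variants outside these patterns were not counted, such as tgacatca in the Jun window, which differs from TGACGTCA by 1 base. GCGTG also occurred at 1 place in the Fosb window and at 2 places in the Junb window, genes that did not pass the test, and the window of the most upstream Egr2 start held no CArG box. Windows of Egr1 and Egr3 were not among those searched, so the CArG box cannot be compared between Egr2 and these genes. Bases farther than 250 before a start were not searched either, so elements there would be missed. Of all 32851 RefSeq promoter windows of the same length, 1.63% held a CArG box, 32.4% held GCGTG, 5.20% the AP-1 site, 5.55% the EGR site and 1.79% the cyclic AMP response element, so a match to GCGTG was common. A match describes these letters and is not evidence of binding.

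Signals were compared as normalized log2 values, and a gene was called changed when its p-value, adjusted by the Benjamini-Hochberg method over all 25697 probes, was under 0.05. Array median signals before normalization were 94.7 to 104.1 in BaP cultures, 105.2 to 126 in DMBA cultures and 105.8 to 133.7 in acetone cultures. DMBA replicate 3 stood farthest from its group: its deviations from the group mean had an SD of 0.151 on the log2 scale, against 0.0788 to 0.121 on the other 8 arrays. Of the listed markers, 8 of 9 stroma, 8 of 11 oocyte, 7 of 12 macrophage and leukocyte and 4 of 8 granulosa genes lay above the 75th percentile of all probes. The counts were 3 of 9 for surface epithelium, 1 of 8 for endothelium, 1 of 6 for smooth muscle and 0 of 5 for erythroid genes. Among all probes, the level of Egr1 stood at the 97.0th percentile, Junb at the 81.6th, Jun at the 77.5th, Fos at the 74.9th, Egr2 at the 67.9th, Jund at the 65.4th, Egr3 at the 47.0th and Fosb at the 43.5th. These percentiles place each probe's own brightness and do not rank transcripts. No detection p-values came with the signals, so it was not tested whether the dim Fosb and Egr3 probes were above background.

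**Figure D1:**
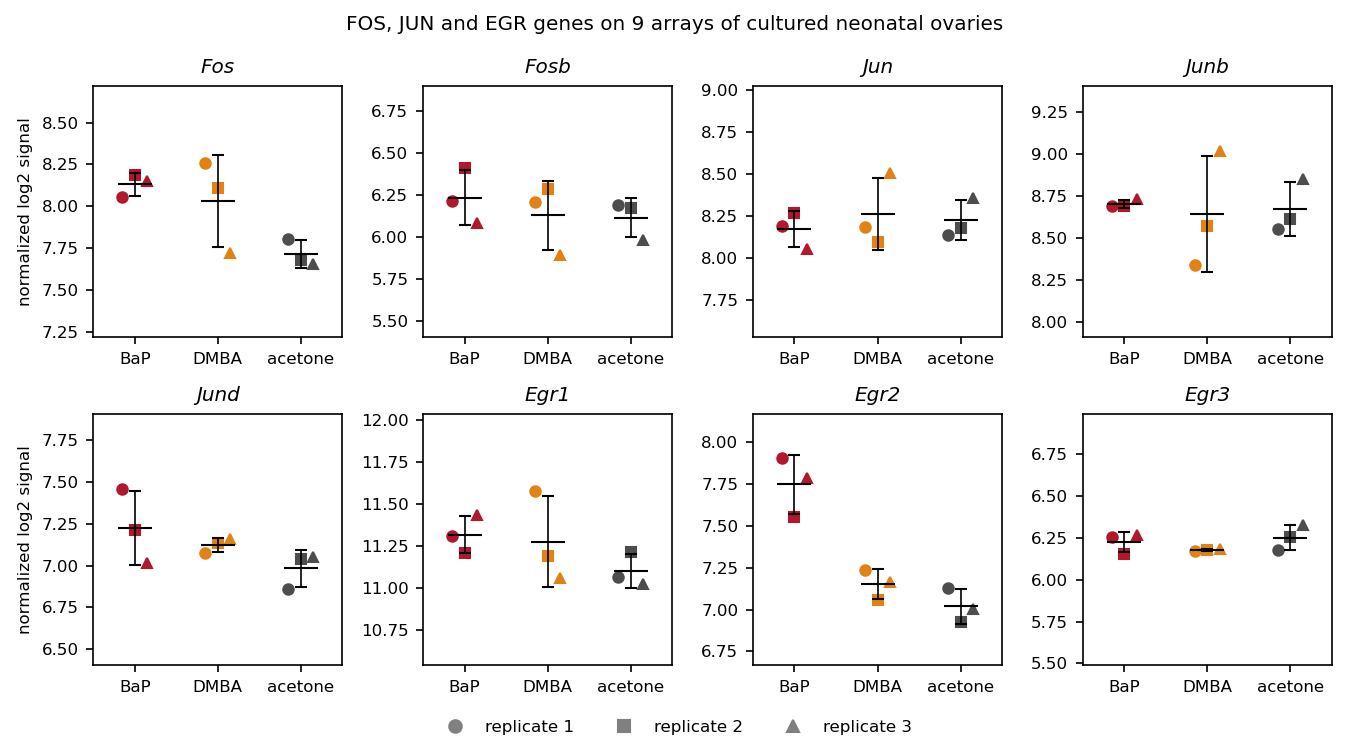
Normalized log2 signal of the 8 measured FOS, JUN and EGR genes on each of the 9 arrays, in BaP, DMBA and acetone cultures. Symbols are replicates 1 to 3, and bars are the mean ± SD of 3 arrays. Egr2 lay at 7.55 to 7.90 in BaP cultures, above all DMBA and acetone arrays, and the Fos values of BaP cultures lay above those of acetone cultures.

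On the normalized scale, Egr2 and Fos were the measured FOS, JUN and EGR genes called higher in BaP cultures than in acetone, by 1.66-fold and 1.34-fold. The Fos call was lost under median scaling, as given below. On the normalized scale, Jun, Junb, Jund, Fosb, Egr1 and Egr3 did not pass the test. The 2 of 8 called higher stand beside 4.90% of all probes called higher (9.80% called in either direction), and beside 9.32% called higher among probes above the median level. At an unadjusted p under 0.05 there were 4 of 8 (Egr2, Fos, Egr1 and Jund), against 20.8% of all probes. Egr2 and Fos were also the 2 of 8 whose BaP values all lay above the acetone values, which held for 11.7% of all probes. The median difference of the 8 genes was 0.17 on the log2 scale, against -0.0014 over all probes, and 6 of 8 lay above 0 (Junb, Jund and Egr1 turned below 0 when arrays were aligned at their medians alone, as given below).

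Egr2, a zinc-finger factor best known for its roles in myelinating Schwann cells and hindbrain patterning, had the largest difference of the 8. Its normalized log2 levels were 7.90, 7.55 and 7.78 in BaP cultures, 7.24, 7.06 and 7.16 in DMBA cultures, and 7.13, 6.92 and 7.00 in acetone cultures. All 3 BaP arrays lay above all 6 others, while the DMBA and acetone values overlapped. The BaP and acetone means were 7.75 ± 0.178 and 7.02 ± 0.105 (SD, n = 3 each), a log2 difference of 0.73 (SE 0.094, 95% interval 0.53 to 0.92, adjusted p = 7.2e-06). In signal before normalization, Egr2 read 192.5, 184.3 and 187.4 in BaP cultures, 225.5, 181.4 and 161.2 in DMBA cultures, and 167.9, 203.3 and 154 in acetone cultures, and these ranges overlapped. Divided by the median signal of its own array, Egr2 was 2.03, 1.77 and 1.89 in BaP cultures, 1.79, 1.55 and 1.53 in DMBA cultures, and 1.59, 1.52 and 1.40 in acetone cultures, so the BaP arrays again lay above the acetone arrays, with 1 DMBA array above the lowest BaP array. The authors' deposited table gives Egr2 an acetone over BaP ratio of 0.669, which is 1.50-fold higher in BaP cultures (unadjusted p = 9.35e-06).

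Fos, the founding member of the FOS family and an obligate partner of JUN proteins in AP-1, had log2 levels of 8.05, 8.18 and 8.15 in BaP cultures, 8.26, 8.11 and 7.72 in DMBA cultures, and 7.81, 7.68 and 7.65 in acetone cultures. The 3 BaP values lay close together and above all 3 acetone values. In DMBA cultures, replicates 1 and 2 lay at the BaP level and replicate 3 within the acetone range. BaP cultures averaged 8.13 ± 0.069 and acetone cultures 7.71 ± 0.083 (SD, n = 3 each), a log2 difference of 0.42 (SE 0.084, 95% interval 0.24 to 0.59, adjusted p = 0.0015). In signal before normalization, Fos read 209.7, 260.5 and 225.6 in BaP cultures and 254.7, 341.3 and 223.2 in acetone cultures. The BaP mean (231.9) thus lay below the acetone mean (273.1). In DMBA cultures Fos read 435.6, 347.6 and 216.9. Divided by the array's median signal, Fos was 2.21, 2.50 and 2.27 in BaP cultures, 3.46, 2.97 and 2.06 in DMBA cultures, and 2.41, 2.55 and 2.03 in acetone cultures. On that scale the BaP and acetone values overlapped, and the call rested on normalization between arrays. The authors' deposited table gives Fos an acetone over BaP ratio of 0.781 (unadjusted p = 0.0098). Fosb, a close relative of Fos that is often induced with it, read 6.08 to 6.41 in BaP cultures, 5.89 to 6.29 in DMBA cultures and 5.98 to 6.19 in acetone cultures. The groups overlapped throughout, and Fosb differed by 0.12 between BaP and acetone (95% interval -0.07 to 0.31, adjusted p = 0.54).

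The JUN genes did not pass the test in any of the 3 comparisons on the normalized scale. Jun, the main transactivating partner in AP-1, had log2 levels of 8.19, 8.27 and 8.05 in BaP cultures, 8.19, 8.10 and 8.51 in DMBA cultures, and 8.14, 8.18 and 8.36 in acetone cultures. The BaP minus acetone difference was -0.05 (95% interval -0.24 to 0.13, adjusted p = 0.82). Junb, which often restrains JUN activity, read 8.69, 8.69 and 8.73 in BaP cultures, 8.34, 8.57 and 9.02 in DMBA cultures, and 8.55, 8.61 and 8.86 in acetone cultures. Its BaP arrays were nearly level, with an SD of 0.023, whereas its DMBA arrays spread with an SD of 0.348. The BaP minus acetone difference of Junb was 0.03 (95% interval -0.15 to 0.22, adjusted p = 0.91). Divided by array median signal, Jun was 2.16 to 2.62 in BaP, 2.95 to 3.30 in DMBA and 2.98 to 3.63 in acetone cultures. Junb was 3.18 to 3.40, 3.63 to 4.48 and 3.94 to 4.89 in the same order. On that scale the BaP values of both genes lay below all others, unlike on the normalized scale. Calls under median scaling are given below. Jund, the JUN gene usually present in resting cells, had log2 levels of 7.45, 7.21 and 7.01 in BaP cultures, 7.08, 7.13 and 7.16 in DMBA cultures, and 6.86, 7.04 and 7.05 in acetone cultures. Replicate 3 of the BaP group lay inside the acetone range. The Jund difference of 0.24 between BaP and acetone missed the threshold (95% interval 0.04 to 0.45, adjusted p = 0.14), and without BaP replicate 3 it was 0.35 with an adjusted p of 0.021.

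Of the other EGR genes, Egr1, a widely used marker of immediate early induction, was the brightest of the 8 probes. It read 11.31, 11.21 and 11.43 in BaP cultures, 11.58, 11.19 and 11.06 in DMBA cultures, and 11.07, 11.21 and 11.02 in acetone cultures. The lowest BaP array fell just under the highest acetone array, and the difference of 0.22 between BaP and acetone missed the threshold (95% interval 0.04 to 0.40, adjusted p = 0.13). Egr3, a calcium- and growth-factor-induced relative of Egr2, stayed between 6.16 and 6.33 on all 9 arrays, with a BaP minus acetone difference of -0.03 (95% interval -0.20 to 0.15, adjusted p = 0.92). On the normalized scale, the intervals of Fosb, Jun, Junb and Egr3 reach no farther from 0 than the 0.31 of Fosb. They do not show that the difference was 0.

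**Figure D2:**
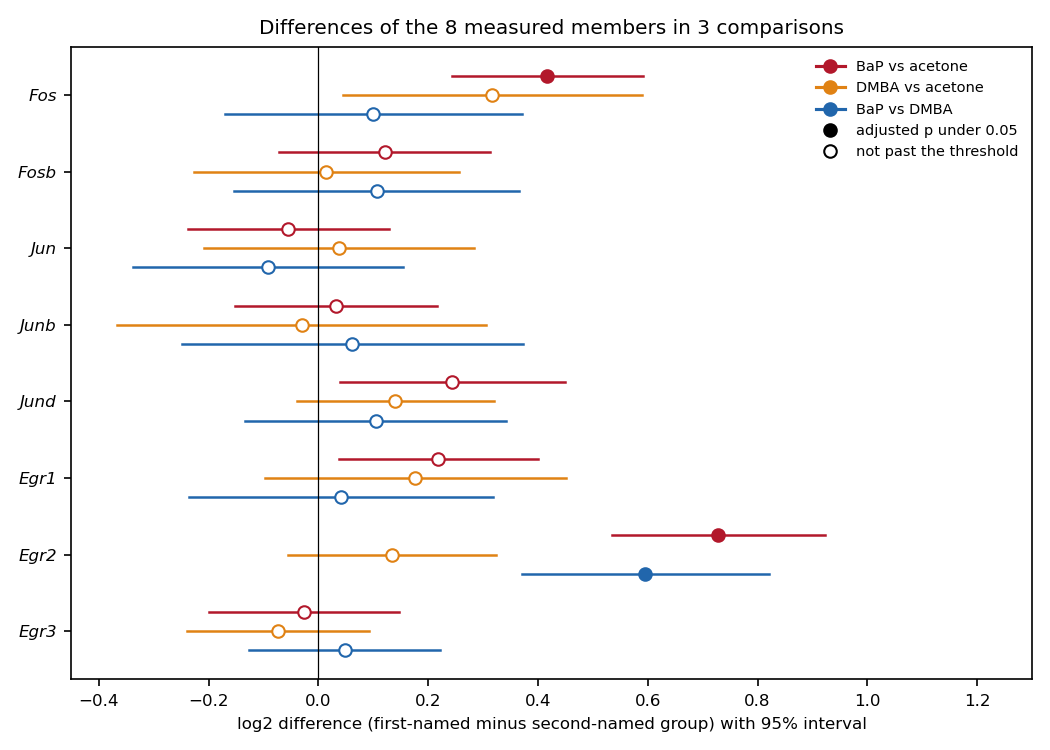
Log2 difference with 95% interval for each of the 8 genes in BaP against acetone, DMBA against acetone, and BaP against DMBA, from limma fits on 6 arrays each; filled points had an adjusted p under 0.05. Filled points are Egr2 (0.73) and Fos (0.42) for BaP against acetone and Egr2 (0.60) for BaP against DMBA, and none for DMBA against acetone.

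In DMBA cultures, 0 of the 8 genes passed limma's test against acetone, where 1.05% of all probes did (0.802% higher and 0.249% lower). At an unadjusted p under 0.05 there was 1 of 8, Fos, against 10.6% of all probes. Fos differed by 0.32 (SE 0.123, 95% interval 0.04 to 0.59, adjusted p = 0.37), with a DMBA mean of 8.03 ± 0.276 and an acetone mean of 7.71 ± 0.083 (SD, n = 3 each). This result turned on DMBA replicate 3, the array with the widest deviations: without it the Fos difference was 0.47 and its adjusted p 0.0018. Egr1 differed by 0.18 (adjusted p = 0.72), Jund by 0.14 (adjusted p = 0.63) and Egr2 by 0.13 (95% interval -0.06 to 0.32, adjusted p = 0.67). Jund was the 1 of 8 whose DMBA values all lay above the acetone values, which held for 7.93% of all probes. Jun differed by 0.04, Fosb by 0.01, Junb by -0.03 and Egr3 by -0.07, with adjusted p-values of 0.83 to 0.99. Junb had the widest interval, from -0.37 to 0.31.

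BaP and DMBA cultures were then set against each other directly, at their unequal concentrations. Egr2 was the 1 of 8 that passed the test, beside 0.506% of all probes called higher in BaP cultures (0.615% lower and 1.12% in either direction), and 0.988% higher among probes above the median level. It was also the 1 of 8 whose BaP values all lay above the DMBA values, which held for 8.14% of all probes. The BaP mean of 7.75 ± 0.178 and the DMBA mean of 7.15 ± 0.091 (SD, n = 3 each) differed by 0.60 on the log2 scale, or 1.51-fold (SE 0.103, 95% interval 0.37 to 0.82, adjusted p = 0.017). The call was lost when BaP replicate 1, BaP replicate 3 or DMBA replicate 2 was left out (adjusted p = 0.10, 0.12 and 0.13), with differences of 0.52, 0.58 and 0.55. Fos did not differ detectably between these cultures (difference 0.10, 95% interval -0.17 to 0.37, adjusted p = 0.86), and the other 6 genes had adjusted p-values of 0.83 to 0.95. The order of Egr2 levels was thus BaP above DMBA and DMBA above acetone, where the last pair did not differ beyond its spread. The Fos order was the same, with neither BaP and DMBA nor DMBA and acetone separated by the test. The comparisons share their acetone and exposed arrays and are not independent of each other.

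Several of these values depended on how the arrays were scaled. When arrays were only aligned at their medians, probes above the median level shifted by -0.34 between BaP and acetone, and of all probes 429 were called higher and 6075 lower. The Egr2 difference was then 0.40 (adjusted p = 0.013), Fos 0.0058 (adjusted p = 0.97), Jund -0.02 and Egr1 -0.18, the last pair with the sign turned. Jun was -0.50 and Junb -0.45, both past the threshold as lower (adjusted p = 0.011 and 0.013), Junb with the sign turned. Set against the 500 probes nearest to each in level, the same median-scaled differences were 0.71 for Egr2, 0.41 for Fos, 0.25 for Jund, 0.24 for Egr1, 0.05 for Junb and -0.04 for Jun. Subtracting the median of probes of like level itself removes a level-dependent shift, as quantile normalization does. These values are therefore no separate check on the reported fit, where the same subtraction gave 0.75 for Egr2 and 0.41 for Fos. For BaP against DMBA the upper probes shifted by -0.27, and the Egr2 difference was 0.27 (adjusted p = 0.12), or 0.55 against its nearest probes. Jun was then the 1 of 8 past the threshold, lower in BaP cultures (-0.47, adjusted p = 0.024; -0.09 against its nearest probes).

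**Figure D3:**
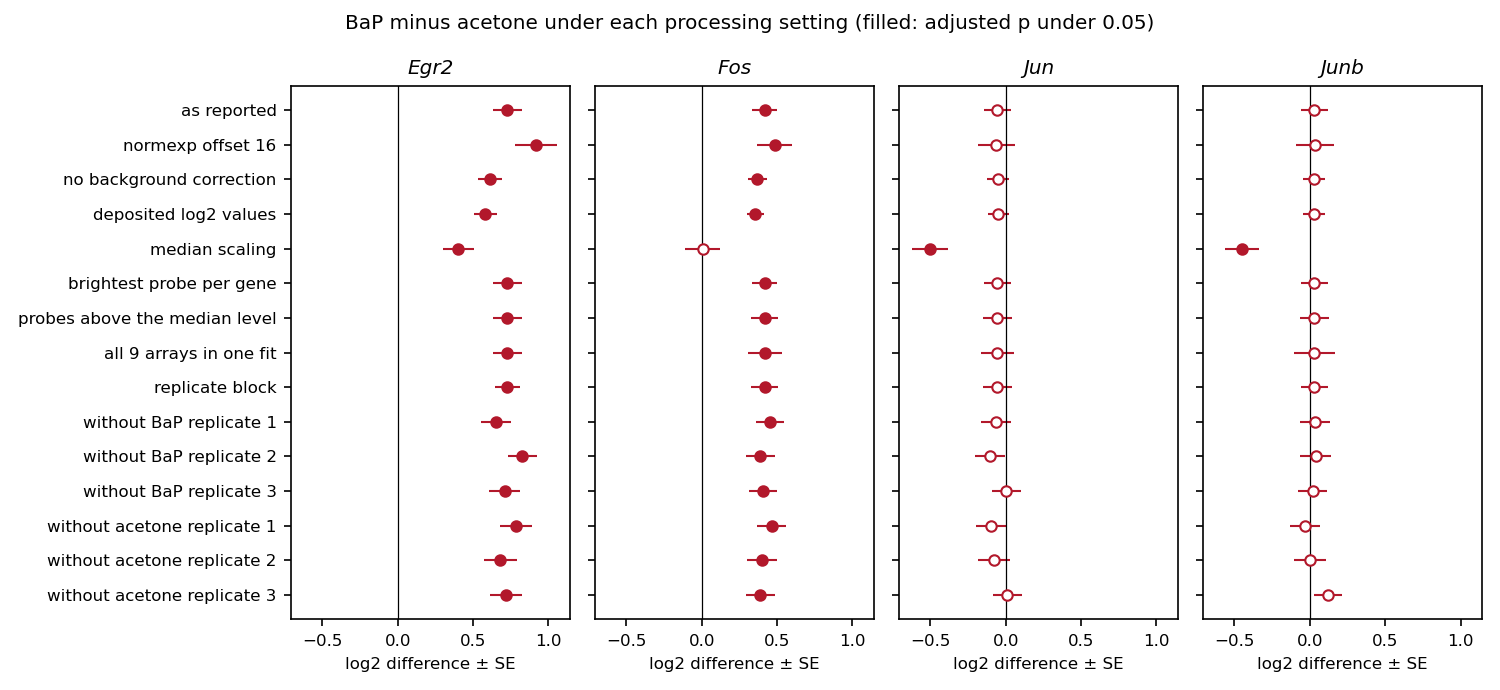
Log2 difference ± SE of BaP minus acetone for Egr2, Fos, Jun and Junb as reported and under 14 other settings; filled points had an adjusted p under 0.05. Egr2 is filled in every setting drawn, from 0.40 to 0.92; Fos falls to 0.0058 and Jun and Junb to -0.50 and -0.45 under median scaling.

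The genes also differed in how they varied over the 9 arrays, between groups as well as within them. Over the 9 arrays, Egr1 followed Fos (Pearson r = 0.774), and Junb followed Jun (r = 0.698), with both JUN genes highest on replicate 3 of the DMBA and of the acetone group. Fos and Junb ran in opposite directions (r = -0.541). These correlations describe 9 arrays that share 3 treatments and their scaling. Among 8944 genes brighter than the median gene, the profiles most like Fos were those of Tgoln1 (r = 0.967), Bcl6 (r = 0.966) and Cbwd1 (r = 0.964). Those most like Jun were Chtf18 (r = 0.965), Rnf8 (r = 0.936) and Eif4a3 (r = 0.929). Those like Egr1 included Zdhhc4 (r = 0.954) and Mkln1 (r = 0.937).

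The upstream kinases and the serum response factor showed few calls. In the list of SRF and ERK inputs, 14 of 15 genes were measured, each by its brightest probe (Elk1 was not analysed here); in BaP cultures against acetone 1 was called higher and 0 lower by limma, 4 had an unadjusted p under 0.05 (20.8% of all probes did), and the list median was 0.02 (-0.0049 over all named genes, of which 4.57% were called higher and 5.58% lower). The called gene was Mapk9, a JNK kinase that phosphorylates JUN, which rose by 0.33 (adjusted p = 0.037). Srf itself differed by 0.13 (adjusted p = 0.54) and the ERK gene Mapk3 by 0.17 (adjusted p = 0.27). Under median scaling Mapk9 differed by -0.03, and 0 of the 14 genes were called higher and 3 lower. In that setting 429 of all 25697 probes were called higher and 6075 lower. In DMBA cultures 0 of these 14 genes passed limma's test, where 0.721% of named genes were called higher and 0.335% lower. An unadjusted p under 0.05 was found for 1 of the 14, against 10.6% of all probes. There Srf differed by -0.12 and Mapk3 by 0.29 (adjusted p = 0.76 and 0.59).

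Of the partners, 1 of 12 other AP-1 and bZIP genes was called in BaP cultures, beside the 4.57% of named genes called higher and 5.58% lower. Under median scaling 0 were called higher and 3 lower, beside 429 of all 25697 probes higher and 6075 lower. The called gene was Mafg, a small MAF partner, which rose by 0.28 (adjusted p = 0.046; -0.21 under median scaling). Atf3, a stress-induced JUN partner, differed by -0.22 (adjusted p = 0.13). None of the 3 EGR partners passed limma's test. An unadjusted p under 0.05 was found for 1 (Egr4, a further EGR factor, at -0.22), against 20.8% of all probes. The co-repressor genes Nab1 and Nab2 differed by 0.16 (adjusted p = 0.26) and 0.15 (adjusted p = 0.40). In DMBA cultures neither list held a gene called by limma or with an unadjusted p under 0.05, with Atf3 at 0.06, Nab1 at 0.16 and Nab2 at 0.0035. Of all probes, 1.05% were called there and 10.6% had an unadjusted p under 0.05.

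Among 32 other immediate early genes, 2 rose and 2 fell in BaP cultures, with a list median of 0.03, beside the same 4.57% of named genes called higher and 5.58% lower. Under median scaling 0 were called higher and 8 lower, with a list median of -0.14. In that setting 429 of all 25697 probes were called higher and 6075 lower. Phlda1, a growth-factor-induced pleckstrin homology protein, rose by 0.47 (SE 0.085, adjusted p = 4.2e-04), and Socs3, a feedback inhibitor of cytokine signalling, rose by 0.29 (adjusted p = 0.032); median scaling gave -0.01 and -0.11. Gadd45b, a stress- and damage-induced regulator, fell by 0.35 (adjusted p = 0.016), and Sgk1, a serum- and glucocorticoid-induced kinase, fell by 0.32 (adjusted p = 0.017). Genes classically induced together with Fos and Egr1 missed the threshold: Ier3 differed by 0.26 (adjusted p = 0.094), Btg2 by 0.11, Zfp36 by 0.05, Myc by -0.06, Ier2 by -0.06 and Nr4a1 by -0.10, the last from a probe at the 0.8th percentile of brightness. In DMBA cultures 0 of 32 passed limma's test, where 0.721% of named genes were called higher and 0.335% lower. An unadjusted p under 0.05 was found for 1 (Sgk1, at -0.40), against 10.6% of all probes. In these cultures Ier3 differed by 0.14, Btg2 by 0.11, Ier2 by 0.0058, Nr4a1 by -0.05, Zfp36 by -0.06 and Myc by -0.16. Between BaP and DMBA cultures 1 of 32 passed, Phlda1, which was higher in BaP cultures by 0.39 (adjusted p = 0.042), where 0.620% of named genes were called higher. That call was kept in 5 of 14 other settings, and the difference was -0.00034 under median scaling.

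Feedback inhibitors of the ERK pathway had 1 call among 8 measured genes of 10, in BaP cultures against acetone. There 4.57% of named genes were called higher and 5.58% lower. Of the 8 genes, 5 had an unadjusted p under 0.05 in that limma fit, against 20.8% of all probes. Under median scaling 0 of the 8 were called higher and 2 lower, beside 429 of all 25697 probes higher and 6075 lower. Spred2, an inhibitor of ERK activation, fell by 0.45 in BaP cultures (adjusted p = 0.0015). Dusp1, a phosphatase of the MAP kinases and itself an immediate early gene, differed by 0.22 in BaP cultures (adjusted p = 0.15) and by 0.26 in DMBA cultures (adjusted p = 0.27). Of 14 other settings, the BaP against acetone call was kept in 4 for Mapk9, 5 for Mafg, 5 for Socs3, 8 for Sgk1, 11 for Gadd45b and 13 for Phlda1, and in 13 of 13 for Spred2. Without DMBA replicate 3, 2 of 14 SRF and ERK inputs, 1 of 8 feedback genes and 2 of 13 AP-1 targets were called higher in DMBA cultures, where 715 of all 25697 probes were called higher, against 206 with that array.

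Of 13 known AP-1 targets, 5 rose and 3 fell in BaP cultures against acetone, with a list median of 0.13, beside 4.57% of named genes called higher and 5.58% lower. Plau, the urokinase-type plasminogen activator, rose by 1.25 (SE 0.091, adjusted p = 7.0e-10), with means of 9.79 ± 0.120 in BaP cultures and 8.54 ± 0.138 in acetone cultures (SD, n = 3 each). Mmp3, a stromelysin that degrades matrix, rose by 0.62 (adjusted p = 3.9e-05). The secreted phosphoprotein gene Spp1 and the metalloproteinase inhibitor gene Timp1 both rose by 0.45 (adjusted p = 0.0018 and 0.0010), and under median scaling stood at 0.03 and 0.06. Mmp9, a gelatinase, fell by 0.77 (adjusted p = 1.4e-06), and Vegfa, the endothelial growth factor, fell by 0.50 (adjusted p = 1.8e-04). In DMBA cultures 1 of 13 targets was called, where 0.721% of named genes were called higher and 0.335% lower. That target was Mmp9, which fell by 0.74 (adjusted p = 0.0066). The call was kept in 11 of 14 other settings and lost under median scaling, without DMBA replicate 2 and without acetone replicate 2. Directly against DMBA, BaP cultures were higher in Plau by 0.73 (adjusted p = 0.015), Cd44 by 0.54 (adjusted p = 0.045), Timp1 by 0.51 (adjusted p = 0.011) and Mmp3 by 0.50 (adjusted p = 0.024), and Vegfa fell by 0.69 (adjusted p = 0.0054), where 0.620% of named genes were called higher and 0.716% lower. The BaP calls of Plau, Mmp9 and Vegfa against acetone were kept in 14 of 14 other settings. The calls against DMBA were kept in 5 (Cd44) to 11 (Vegfa) of them. Under median scaling 2 of 13 targets were called higher and 3 lower in BaP cultures against acetone. In that setting 429 of all 25697 probes were called higher and 6075 lower. These genes are known to answer to other factors as well as AP-1.

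**Figure D4:**
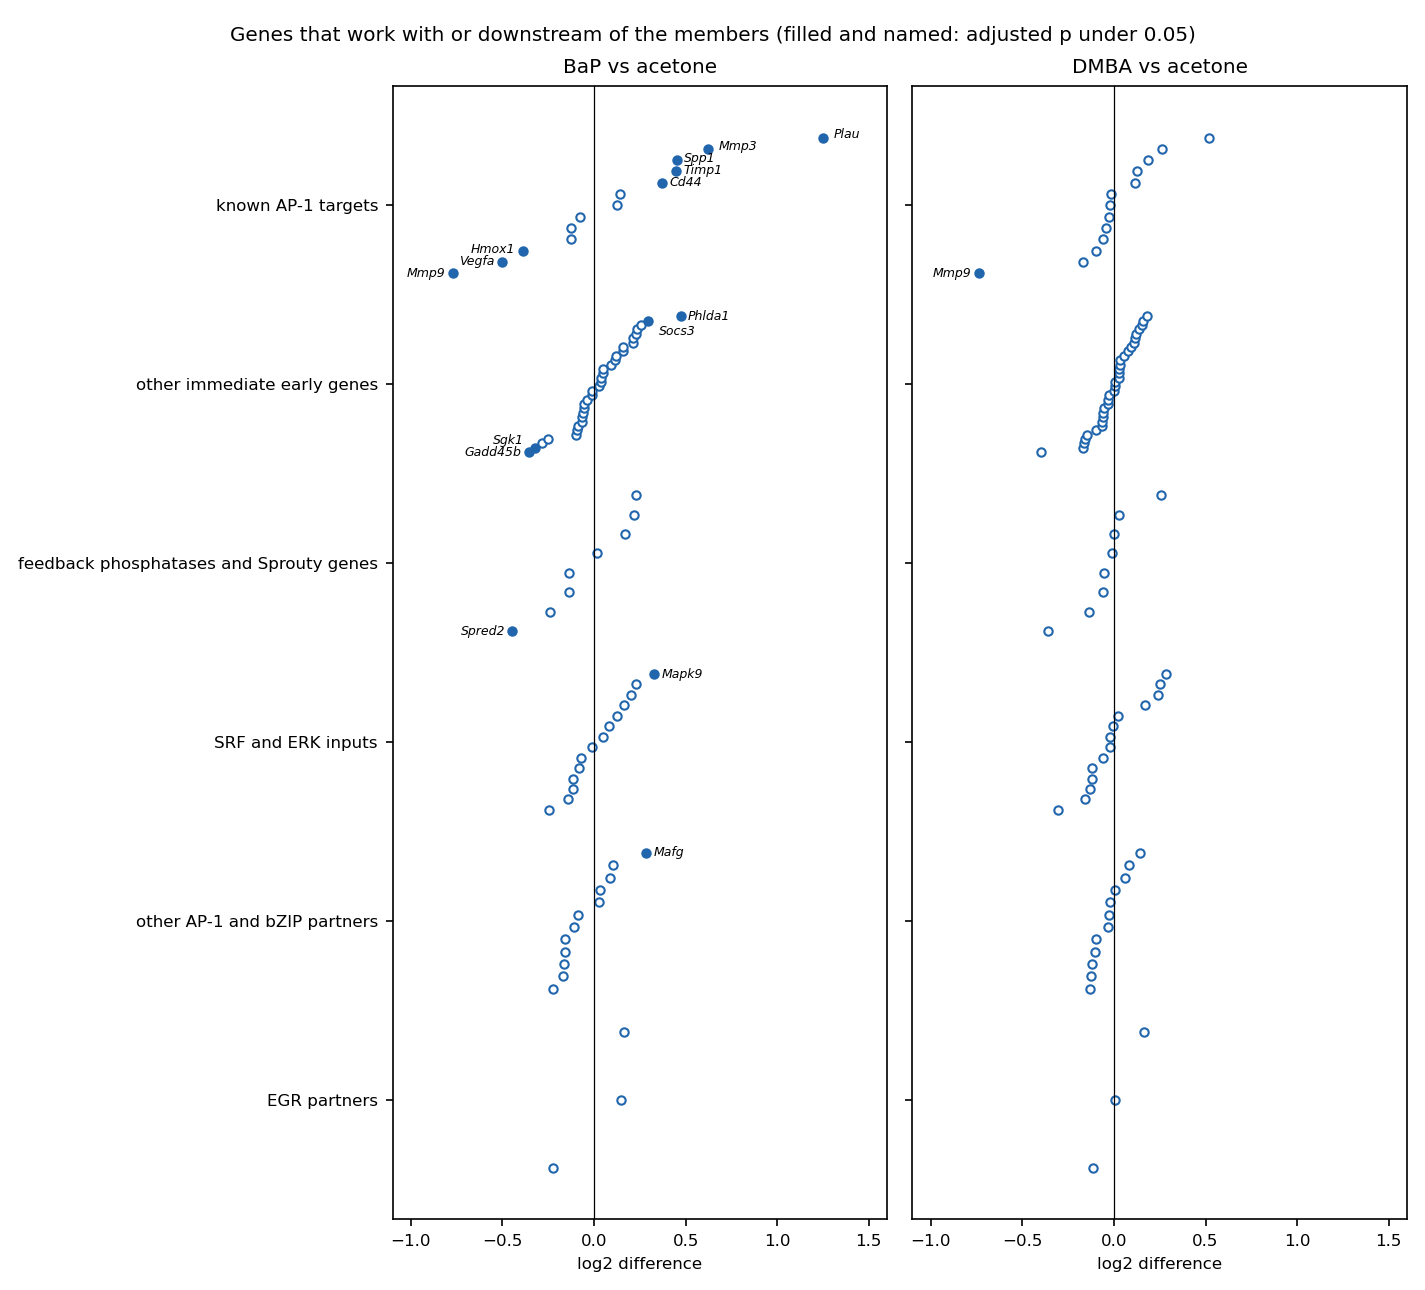
Log2 differences of genes that work with or downstream of the FOS, JUN and EGR factors, in BaP against acetone (left) and DMBA against acetone (right), 1 point per gene and sorted within each list; filled and named points had an adjusted p under 0.05. Plau at 1.25 and Mmp9 at -0.77 bound the BaP panel, and Mmp9 at -0.74 is the named point of the DMBA panel.

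Cell type markers moved in the same BaP arrays in which Egr2 and Fos were called higher on the normalized scale. Of 12 macrophage and leukocyte markers, 8 fell in BaP cultures against acetone and none of the 12 lay above 0, where Coro1a fell by 1.21 and Cd52 fell by 1.08; 5.58% of named genes were called lower. Their summed signal ranged over 6621 to 7208 in BaP cultures, 8815 to 10578 in DMBA cultures and 8257 to 8682 in acetone cultures. Of 9 stroma markers, 4 rose in BaP cultures (Fbln2 by 1.01 and Col3a1 by 0.82; 4.57% of named genes were called higher), with sums of 27147 to 28021 in BaP cultures, 23431 to 27514 in DMBA cultures and 23540 to 26012 in acetone cultures. Calls in the other lists were 1 higher and 3 lower of 11 oocyte markers, 1 and 2 of 8 granulosa markers, 1 and 3 of 9 surface epithelium markers, 1 and 0 of 8 endothelium markers, 1 and 2 of 6 smooth muscle markers, and 1 and 0 of 5 erythroid markers. Under median scaling the calls were 0 higher and 11 lower for macrophage, 1 and 4 for stroma, 1 and 6 for oocyte and 0 and 4 for granulosa markers. They were 0 and 6 for surface epithelium, 0 and 1 for endothelium, 0 and 3 for smooth muscle, and 0 and 0 for erythroid markers. In that setting 429 of all 25697 probes were called higher and 6075 lower, and probes above the median level shifted by -0.34. Col3a1 missed the threshold there (0.35, adjusted p = 0.074). In DMBA cultures 2 of 12 macrophage markers rose, C1qb by 0.88 and C1qc by 0.65, where 0.721% of named genes were called higher. These calls were kept in 7 and 9 of 14 other settings and lost under median scaling, without DMBA replicate 2 and without any single acetone array. Other DMBA calls against acetone were 2 oocyte and 1 smooth muscle marker lower, and 1 stroma and 1 surface epithelium marker higher. Here 0.335% of named genes were called lower. Under median scaling none of these lists held a call, where 4 of all 25697 probes were called. Between BaP and DMBA cultures, 8 of 12 macrophage markers were called lower and 2 of 9 stroma markers higher. There 0.716% of named genes were called lower and 0.620% higher, and each other list held at most 1 call in either direction. Under median scaling 10 macrophage markers were called lower and 0 stroma markers higher, beside 2860 of all 25697 probes lower and 84 higher. The replicate block called 4 macrophage markers lower and 0 stroma markers higher. The same counts came without BaP replicate 2, BaP replicate 3 or DMBA replicate 2. They were 5 and 0 without BaP replicate 1, and 10 and 3 without DMBA replicate 3. The part that cell makeup had in the Egr2 and Fos differences was not tested.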

How the data were processed

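Total RNA of cultured ovaries was hybridised to Illumina bead arrays. Intensity values were deposited per probe as a table that its header calls non-normalized, and normalized log2 values were deposited for the same arrays; lumi is named per the submitters' processing notes, its settings not given in the sources used here. Sheets of linear ratio (acetone over compound), a signed fold (a score) and an unadjusted p-value were deposited by the authors, per the file headers; 31 p-value cells hold clock times and were read as missing.

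Probes were named by pairing the differences of deposited group means with the log2 of the deposited ratios, which paired 25649 of 25697 probes; 48 were left out of naming. RefSeq tables updated names (by accession 23692, symbol 852, synonym 434; 671 kept as listed). All probes were background-corrected with normexp (offset 50), quantile normalized and tested two-sided with limma 3.58.1 in R 4.3.3, each comparison on its own 6 arrays, with Benjamini-Hochberg adjustment over all probes and a threshold of 0.05. Of genes outside the FOS, JUN and EGR families, the brightest probe was read from that fit; up to 6 called genes per list and comparison, a panel of immediate early and pathway genes, up to 4 markers per list and the 3 most correlated genes of Fos, Jun and Egr1 were named, except a few that are not reported here. The genes and lists were chosen with earlier results of these data known. The code was tested on simulated data. Array number limits precision: the median SE of a BaP against acetone difference was 0.087.

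Over all probes, deviations of same-numbered replicates correlated weakly (-0.180 to 0.130), so the numbers were not used as pairs. For DMBA against acetone the correlations were 0.038, 0.055 and 0.130. There a replicate block lowered the SE of Junb from 0.152 to 0.093 and of Fos from 0.123 to 0.096. It raised the SE of Egr3 from 0.075 to 0.080, and 0 of the 8 genes were called with it. The alternatives are given in the closing section.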

Additional observations from a re-analysis of the deposited data

How the results depend on the processing

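Each comparison was repeated under other background corrections, scalings, probe sets, fits and with each array left out. A chip block was not run, since the headers name no chip. Over 24 gene results and 330 result and setting pairs, 292 kept direction and side of the threshold, 29 changed sign (Junb in BaP against acetone under median scaling also passing the threshold), and of those that kept their sign 5 lost and 4 gained the threshold; 8 of the sign changes came with median scaling and the rest with an array left out. Against 270 probes for DMBA against acetone, deposited log2 values gave 126, no background correction 150, all 9 arrays in one fit 462, median scaling 4, and single arrays left out 26 to 1132, the extremes without acetone replicate 2 and DMBA replicate 3; calls among the 8 genes ranged from 0 to 1. Against 2518 probes for BaP against acetone (1258 higher, 1260 lower), normexp offset 16 gave 944, all 9 arrays 1502, median scaling 6504 (429 higher, 6075 lower), and single arrays left out 1446 (acetone replicate 2) to 2391; calls among the 8 genes were 2, 3 under median scaling, and 2 to 3 with an array left out. Against 288 probes for BaP against DMBA (130 higher, 158 lower), normexp offset 16 gave 145 (50 higher, 95 lower), the replicate block 147, all 9 arrays 534, median scaling 2944 (84 higher, 2860 lower), and single arrays left out 72 to 892, the extremes without BaP replicate 2 and DMBA replicate 3; calls among the 8 genes were 1 and, with an array left out, 0 to 1 (median scaling called Jun in place of Egr2). The cause of these shifts was not tested. The replicate block gave 304 probes for DMBA and 1960 for BaP against acetone, and left the calls among the 8 genes in all 3 comparisons where they were (Egr2 adjusted p = 5.1e-05 and Fos 0.0080 for BaP against acetone, Egr2 0.036 for BaP against DMBA).

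Under median scaling the sign turned for Jun in DMBA against acetone (-0.029), for Junb, Jund and Egr1 in BaP against acetone (-0.45, -0.018 and -0.18), and for Fos, Junb, Jund and Egr1 in BaP against DMBA (-0.28, -0.33, -0.15 and -0.24). With single arrays left out, differences that crossed 0 ranged, for DMBA against acetone, over -0.065 to 0.13 (Fosb), -0.084 to 0.12 (Jun) and -0.22 to 0.12 (Junb). For BaP against acetone they ranged over -0.10 to 0.012 (Jun), -0.029 to 0.12 (Junb) and -0.063 to 0.011 (Egr3). For BaP against DMBA they ranged over -0.054 to 0.21 (Fos), -0.012 to 0.19 (Fosb), -0.18 to 0.029 (Jun), -0.091 to 0.25 (Junb), -0.010 to 0.21 (Jund) and -0.067 to 0.19 (Egr1).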
